A study of Mus musculus with 23 samples.

Results

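The count tables hold 18512 gene symbols, and 4 of them are described here: Rn45s, Mir6236, Mir6240 and Lars2. They were chosen by name, with earlier results of these mice known: Rn45s as the symbol of the 45S ribosomal RNA precursor, Mir6236 and Mir6240 as microRNA symbols described as ribosomal RNA-like, and Lars2 because its counts followed those of Rn45s from mouse to mouse. That covariation was what selected Lars2, so it is given only as a description. All 4 symbols had counts in each of the 23 mice, and they were among the 12195 genes tested.

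All 23 animals were C57BL/6 mice, 6 to 8 weeks old, and RNA was taken from the head of the pancreas. The baseline mice (n = 8, 4 females and 4 males) were not injured. The injured mice received caerulein, a cholecystokinin analogue that overstimulates acinar cells, at 50 µg/kg in 8 hourly injections on each of 2 successive days. They were killed at day 7 (n = 8, 4 females and 4 males) or at day 14 (n = 7, 3 females and 4 males). Each library came from 1 mouse, so p-values measure the spread between mice. Whole tissue was used, with no sorting of cells. The libraries were made from total RNA after removal of ribosomal RNA, with no selection for poly(A).

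In the nucleolus, RNA polymerase I transcribes repeated genes into the 45S precursor. This RNA is cut and modified into the RNAs of the large and small ribosomal subunits. Acinar cells of the pancreas make and secrete digestive enzymes, and are known for their dense rough endoplasmic reticulum and high ribosome content. MicroRNAs are cut from hairpin precursors and bind messenger RNAs through a seed at their 5′ end. Lars2 encodes the mitochondrial leucyl-tRNA synthetase, which charges mitochondrial tRNA with leucine. Lars encodes the enzyme of the cytosol.

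The annotated mature microRNAs are shown because their length bears on what the counts of these symbols can be. The sequences are from RefSeq for GRCm38.p6, and the capitals mark the seed (bases 2 to 8).
Mir6236 (miR-6236, chr9:110281353-110281371, plus strand): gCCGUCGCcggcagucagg
Mir6240 (miR-6240, chr5:114851973-114851998, plus strand): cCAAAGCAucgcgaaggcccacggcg
Mature miR-6236 has 19 bases, of which 78.9% are G or C, and miR-6240 has 26 bases, of which 69.2% are G or C. Their seeds differ. No other entry among 1738 mature mouse microRNAs in that table has the seed of miR-6236, and 1 other entry has that of miR-6240. The reads were 75 bases long before trimming, longer than either mature form. The counts are therefore read here as those of the annotated span of the symbol and not of a mature microRNA. The annotation used for counting is not given, so the span counted can differ from the GENCODE span. In the GENCODE annotation of GRCm38 that span is chr9:110281287-110281409 for Mir6236 (123 bases) and chr5:114851948-114852064 for Mir6240 (117 bases). Lars2, a protein-coding gene, lies at chr9:123366927-123462666 on the plus strand. Rn45s has no entry in the annotation used here, and its sequence was not used.

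The name "ribosomal RNA-like" was compared with 361 GENCODE transcripts. They were those typed as ribosomal RNA or mitochondrial ribosomal RNA, and those of Gm26917, Gm42418, AY036118 and CT010467.1, which were added by name. GENCODE types Gm26917, Gm42418 and AY036118 as long intergenic non-coding RNA. No 75-base window of the Mir6236 hairpin (of 49), of the Mir6240 hairpin (of 43) or of the Lars2 transcript (of 3820) matched any of the 361 transcripts exactly on either strand. The longest run of identical bases was 13 for Mir6236, 11 for Mir6240 and 14 for Lars2. Shorter windows of 50 and 30 bases gave 0 matches as well. This set holds no Rn45s sequence, so the comparison does not bear on likeness to the 45S precursor itself. Over all other GENCODE transcripts, 30-base windows of the Lars2 transcript occurred in 2 genes, AA474408 (29 windows) and Gm15564 (23 windows). AA474408 was named after the matches were seen. Gm15564 was among the 35 symbols looked up below, mainly of ribosomal and other structural RNAs and of microRNAs. It was not part of the 361 transcripts, so the 0 matches above do not cover it. Gm15564 shared a run of 52 bases with Lars2, with 3 windows of 50 bases and 0 windows of 75 bases. No 30-base window of either hairpin occurred in another gene.

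Library totals ran from 7059890 to 9567446 counts, and a mouse had counts for 14641 to 16653 symbols. The 21 acinar markers (digestive enzyme and acinar transcription factor genes) were detected in each time group, none at 0. Together they took between 44.2% and 58.6% of the counts of a mouse. Values per mouse are given as normalised counts, which are deposited counts divided by the library size after TMM scaling (trimmed mean of M values) and set to the mean library. A gene was called when its adjusted p was at most 0.05 and its fold change at least 1.5, the limits used in the study.

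Rn45s, Mir6236, Mir6240 and Lars2 all had lower counts at day 7 than at baseline, by 2.03-fold to 2.88-fold. In normalised counts no day 7 mouse reached the lowest baseline mouse for any of them. How many of all tested genes separated in this way was not counted, so the separation is a description only. At day 7, 3925 of 12195 tested genes had an unadjusted p under 0.05. At day 14 Lars2 and Mir6240 were still lower than at baseline, by 1.76-fold and 2.57-fold. Rn45s and Mir6236 were nearer to baseline at day 14 and did not pass the test.

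Rn45s, the 45S precursor symbol, ranked 14th of all symbols by summed counts. Its normalised count at baseline was lowest at 189453, in the middle at 216240 and highest at 276843. For day 7 the lowest, median and highest values were 64486, 110680 and 152263. For day 14 they were 130973, 141172 and 198711. The lowest day 7 value was that of mouse 15, a male, and the baseline and day 7 ranges did not overlap. At day 14, 6 of 7 mice were below every baseline mouse and 3 of 7 were above every day 7 mouse. The baseline mean was 221038 ± 29853 (SD, n = 8), the day 7 mean 109351 ± 25681 (n = 8) and the day 14 mean 156209 ± 28744 (n = 7). Rn45s fell by 1.02 on the log2 scale from baseline to day 7 (SE 0.13, edgeR adjusted p = 6.33e-06). The day 14 difference from baseline was -0.50 (SE 0.14, edgeR adjusted p = 0.0615), short of both limits. DESeq2 gave the same difference an adjusted p of 0.0135, and edgeR on the baseline and day 14 mice alone gave 0.00944 (range 0.00944 to 0.101 over the alternatives other than leaving out single mice), but no alternative brought it to 1.5-fold. From day 7 to day 14 the difference was 0.52 (SE 0.14, edgeR adjusted p = 0.0517).

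Mir6236 had 194163 counts over all mice, 79.5% of the 244084 counts of the 630 symbols that begin with Mir and a number. The next of these, Mir7076, had 4755. Normalised counts of Mir6236 at baseline ran from 9431 through a median of 13210 to 19622. The day 7 mice ran from 1790 (mouse 15) through 4457 to 9363 (mouse 11), and those of day 14 from 5750 through 8606 to 14308. All 8 day 7 mice were below every baseline mouse, whereas 4 of 7 day 14 mice were. Mir6236 fell by 1.45 on the log2 scale at day 7 (SE 0.26, edgeR adjusted p = 0.000591). Its day 14 value was -0.46 against baseline (SE 0.26, edgeR adjusted p = 0.488) and 0.99 against day 7 (SE 0.26, edgeR adjusted p = 0.0650). For that last difference DESeq2 gave 0.99 with an adjusted p of 0.00501, and the adjusted p ranged from 0.00501 to 0.154 over the alternatives other than leaving out single mice. The coefficient of variation between mice at day 7 was 45.0% for Mir6236 against 23.5% for Rn45s.

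Mir6240 was near the limit of detection. It had 224 counts over the 23 mice, with 10 to 18 per baseline mouse, 3 to 11 per day 7 mouse and 5 to 12 per day 14 mouse. The lowest library, that of mouse 15, had 3 counts, a share of 3.46e-05% (95% exact binomial interval 7.13e-06% to 0.000101%, counting error only). A count of 3 is also the floor that a count of 0 would allow, between 3.14e-05% and 4.25e-05% of a library. Mir6240 passed the filter on low counts through baseline, where it was highest, so its place among tested genes is not independent of its direction. Its normalised counts had a baseline median of 19.4 (12.6 to 24.2), a day 7 median of 6.47 (2.43 to 9.58) and a day 14 median of 6.61 (4.80 to 13.1). The baseline and day 7 ranges did not overlap after scaling, but the deposited counts did, at 10 and 11. Mir6240 fell by 1.53 on the log2 scale at day 7 (SE 0.26, edgeR adjusted p = 0.000189). It fell by 1.36 at day 14 (SE 0.27, edgeR adjusted p = 0.00614). The day 14 and day 7 values did not differ beyond their spread (0.17, SE 0.29, edgeR adjusted p = 0.836).

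Lars2, the mitochondrial leucyl-tRNA synthetase gene, ranked 91st of all symbols by summed counts. Its normalised count at baseline was lowest at 3353, in the middle at 4739 and highest at 6443. Among day 7 mice the lowest was 1626 (mouse 15), the median 2186 and the highest 3027 (mouse 11). Among day 14 mice these were 2524, 2668 and 3555. Every day 7 mouse was below every baseline mouse. At day 14 this held for 6 of 7 mice, and the exception was mouse 23, a male. The mean went from 4849 ± 1183 (SD, n = 8) to 2174 ± 421 (n = 8) at day 7, and was 2760 ± 359 (n = 7) at day 14. Lars2 fell by 1.16 on the log2 scale at day 7 (SE 0.14, edgeR adjusted p = 4.92e-06). At day 14 Lars2 decreased by 0.81 against baseline (SE 0.14, edgeR adjusted p = 0.00302). The value of 0.34 from day 7 to day 14 (SE 0.14, edgeR adjusted p = 0.264) did not pass.

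**Figure D1:**
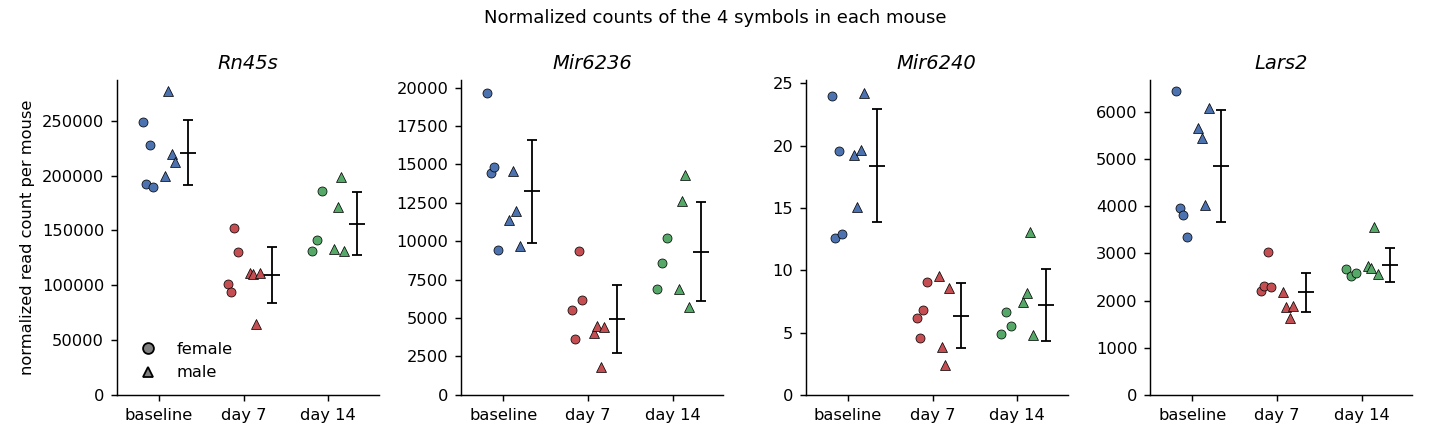
Normalised counts of the 4 symbols (vertical axes, each from 0) at baseline, day 7 and day 14, with circles for females, triangles for males and black bars for mean ± SD. In each panel all 8 day 7 mice sit below all 8 baseline mice. At day 14 Lars2 is below every baseline mouse except in mouse 23 (3555), which lies above baseline mouse 4 alone (3353).

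All 4 members were thus called lower at day 7, where 1.31% of all 12195 tested genes were called lower. At day 14, 2 of 4 were called lower, against 0.0902% of tested genes (11 genes, of which Lars2 and Mir6240 are 2). Mir6240 passed the filter on low counts through baseline, where it was highest, so its calls at both days are not independent of its direction. No member was called between day 14 and day 7 by edgeR, where 0.205% of genes were called higher. At an unadjusted p under 0.05, 3 of the 4 members differed in that comparison, beside 1721 of all 12195 tested genes. DESeq2 called 1 member, Mir6236, among 36 genes that it called in either direction. These counts describe members picked with the results known, and because Lars2 was selected on its likeness to Rn45s in the same mice, its fall adds no separate evidence to that of Rn45s. The median of the 4 members was -1.30 at day 7 and -0.66 at day 14 on the log2 scale, beside 0.02 and 0.01 over all tested genes.

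These fold changes are relative to the TMM scaling. With scaling by the total count, the median of all tested genes moved to 0.47 at day 7 and to 0.22 at day 14. Under it, 0.568% of called genes at day 7 were lower, in place of 25.6%, and at day 14 1.79% in place of 11.5%. The 4 members kept negative values under that scaling, of -0.57 (Rn45s), -1.01 (Mir6236), -1.09 (Mir6240) and -0.70 (Lars2) at day 7. The value of Rn45s then stayed past the adjusted p limit (edgeR adjusted p = 0.000117, with a range from 4.19e-13 to 0.000117 over the alternatives other than leaving out single mice) but below the fold limit, so it was no longer called. Relative to the median of all genes, total count scaling gave -1.05 for Rn45s and -1.18 for Lars2 at day 7, and -0.50 and -0.81 at day 14.

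**Figure D2:**
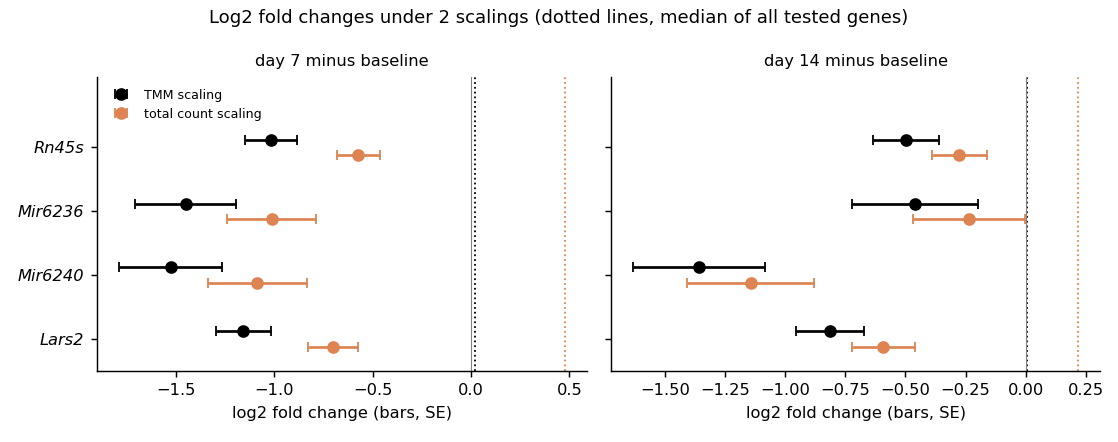
Log2 fold changes with their SE at day 7 and day 14 against baseline (horizontal axes) for the 4 symbols, under TMM scaling (black) and total count scaling (orange), with dotted lines at the median of all tested genes. Each symbol lies left of its dotted line in both panels, and Rn45s moves from -1.02 to -0.57 at day 7 between the scalings.

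As a share of all counts, which needs no scaling factor, the 4 symbols together took 2.35% ± 0.20 (SD, n = 8) at baseline, 1.56% ± 0.32 (n = 8) at day 7 and 1.92% ± 0.34 (n = 7) at day 14. Baseline mice ranged between 2.10% and 2.63%, day 7 mice between 0.965% and 2.03%, and day 14 mice between 1.54% and 2.35%. Nearly all of this share was Rn45s, with 2.17% ± 0.19 at baseline, 1.46% ± 0.29 at day 7 and 1.78% ± 0.30 at day 14. Its day 14 share was below baseline by 0.389 percentage points (exact permutation p = 0.0127, adjusted 0.0212). The joint share was lower by 0.787 percentage points at day 7 (exact two-sided permutation p = 0.000155, the smallest that 12870 splits can give, and 0.000583 after Benjamini-Hochberg adjustment over 15 tests). At day 14 it was lower by 0.429 points (exact permutation p = 0.0124, adjusted 0.0212). Lars2 took 0.0475% ± 0.0103 of counts at baseline, 0.0293% ± 0.0056 at day 7 and 0.0314% ± 0.0032 at day 14. It was lower than baseline at day 7 (exact permutation p = 0.000155, adjusted 0.000583) and at day 14 (exact permutation p = 0.00186, adjusted 0.00400). The share of Mir6236 rose from 0.0655% ± 0.0263 at day 7 to 0.106% ± 0.0339 at day 14 (exact permutation p = 0.0236, adjusted 0.0354), a difference of 0.0404 percentage points. Without mouse 23 it was 0.0325 points, with an exact permutation p of 0.0516. The share of Mir6236 at day 14 did not differ from baseline beyond its spread (exact permutation p = 0.166, adjusted 0.192).

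The covariation that selected Lars2 can be read mouse by mouse. Over 23 mice the log2 CPM (counts scaled to library size) of Lars2 and Rn45s had Pearson r = 0.88 and Spearman rho = 0.93. Much of that span was the difference between time points, since r on deviations from the time point means was 0.59. Within time points r was 0.49 at baseline (n = 8), 0.78 at day 7 (n = 8) and 0.61 at day 14 (n = 7), and rho was 0.45, 0.48 and 0.36. Mouse 15, lowest in all 4 symbols, and mouse 6, highest in Rn45s, were farthest from the median of Rn45s, and r without them was 0.86.

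Mir6236 followed Rn45s more closely than Lars2 did. Its r was 0.95 over 23 mice and 0.89 on deviations from the time point means, with 0.61 at baseline, 0.95 at day 7 and 0.92 at day 14. Among 12194 tested genes Mir6236 ranked 1st in r with Rn45s, both over all mice and on the deviations. Lars2 ranked 12th over all mice and 124th on the deviations. For Mir6240, with few counts per mouse, r was 0.84 over all mice and 0.63 on the deviations. The points share libraries and scaling factors, and these values carry no test. The slope of log2 CPM on that of Rn45s was 1.52 for Mir6236 and 0.96 for Lars2 over 23 mice. Within day 7 and day 14 the slopes were 1.80 and 1.75 for Mir6236, and 0.57 and 0.40 for Lars2. Mir6236 thus spread over a wider fold range (10.96-fold from lowest to highest mouse) than Rn45s (4.29-fold) or Lars2 (3.96-fold).

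**Figure D3:**
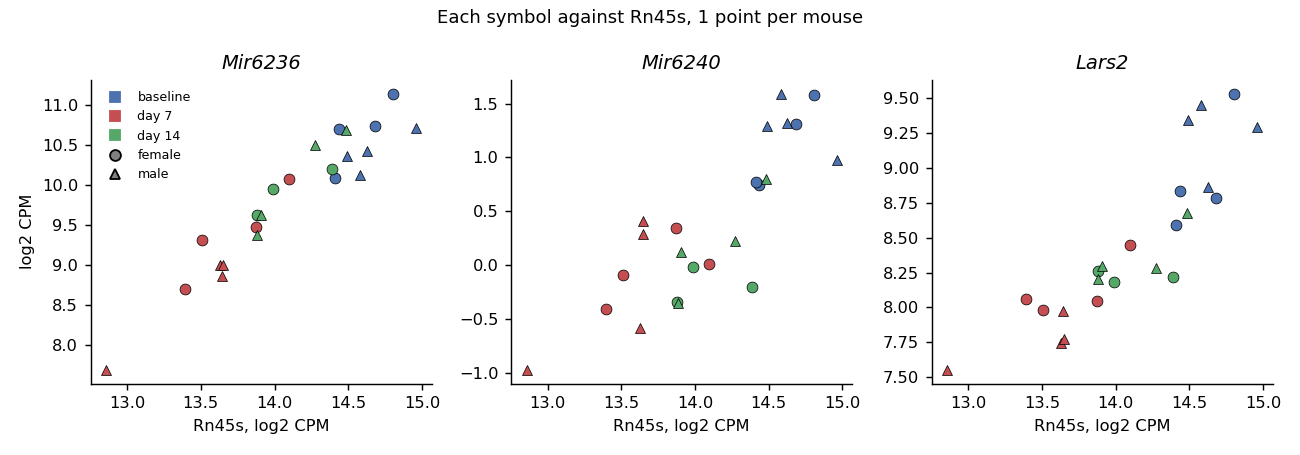
Log2 CPM of Mir6236, Mir6240 and Lars2 (vertical axes) against log2 CPM of Rn45s (horizontal axes), 1 point per mouse, coloured by time point and shaped by sex. Pearson r over 23 mice was 0.95, 0.84 and 0.88, and mouse 15 of day 7 is the lowest point in each panel.

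The ratio of raw counts within a mouse depends on no scaling. For Lars2 it had a mean of 21.97 ± 4.85 counts per 1000 Rn45s counts at baseline (SD, n = 8), 20.3 ± 3.3 at day 7 (n = 8) and 17.95 ± 2.44 at day 14 (n = 7). The ranges were 16.8 to 28.6, 16.9 to 25.2 and 13.9 to 20.4, so the day 7 mice all lay within the baseline range and 2 of 7 day 14 mice lay below it. For Mir6236 the mean was 59.8 ± 12.0 per 1000 at baseline, 43.3 ± 10.7 at day 7 and 58.4 ± 10.97 at day 14. There, 5 of 8 day 7 mice were below every baseline mouse, with the lowest ratio, 27.8, in mouse 15, and 1 of 7 day 14 mice was. For Mir6240 the mean was 0.0837 ± 0.0197 per 1000 at baseline, 0.0574 ± 0.0189 at day 7 and 0.0457 ± 0.0124 at day 14. The 3 ratios therefore had different orders over time: that of Mir6236 was lowest at day 7, and those of Lars2 and Mir6240 were lowest at day 14, with ranges that overlapped between time points in each case.

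**Figure D4:**
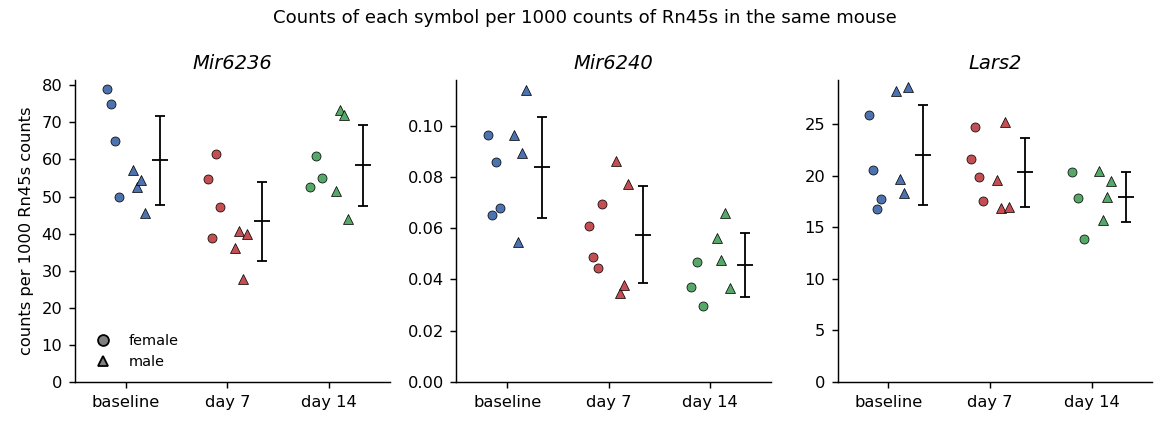
Counts per 1000 counts of Rn45s in the same mouse (vertical axes, each from 0) for Mir6236, Mir6240 and Lars2, with circles for females, triangles for males and black bars for mean ± SD. The ratio of Mir6236 dips at day 7 (mean 43.3) and returns at day 14 (mean 58.4), while that of Lars2 is 21.97, 20.3 and 17.95.

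No member was called between males and females. Over all time points no member was called for sex, with 0.230% of genes called, 0 members at an unadjusted p under 0.05 and 0 called by DESeq2. The largest size was 0.30 for Mir6236, higher in females (SE 0.21, edgeR adjusted p = 0.768). Within time points no member was called at baseline (0.0696% of 12933 genes called), at day 7 (0.0619%) or at day 14 (0.0619%). At day 7, 2 members had an unadjusted p under 0.05. Lars2 was higher in females by 0.37 on the log2 scale (SE 0.17, edgeR adjusted p = 0.733), with a mean of 2458 ± 383 in 4 females and 1889 ± 227 in 4 males. Mir6236 was higher by 0.74 (SE 0.34, edgeR adjusted p = 0.770), and by 0.47 without mouse 11. At baseline the Lars2 value was -0.27 (SE 0.17), lower in females, and it moved to -0.52 without mouse 1 and to -0.16 without mouse 4. The test of that change between time points gave 0.65 for Lars2 (SE 0.24, edgeR unadjusted p = 0.0119, adjusted p = 0.773), with 0.00773% of genes called. In it, Lars2 was the 1 member at an unadjusted p under 0.05, beside 705 of all 12933 tested genes. For day 14 against baseline no member passed the same test, nor did any gene (0% called by edgeR, with 473 genes at an unadjusted p under 0.05 and 1 gene called by DESeq2).

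The genes most like Rn45s over the 23 mice, apart from the members, were Hamp2 (r = 0.91), Cux1, Sycn, Cpa1, Mprip, 2610507B11Rik, Ctrl, Tbc1d16, Clps and 2210010C04Rik (r = 0.88). Hamp2 encodes a hepcidin-type peptide and Cux1 a homeobox transcription factor. Sycn encodes syncollin of the zymogen granule, Cpa1 a carboxypeptidase, Ctrl a chymotrypsin-like protease and Clps colipase. The genes most like Lars2 were Cux1 (r = 0.89), Ergic3, Cpa1, Srpk1, 2610507B11Rik, Hamp2, Pigt, Ogdh, 2210010C04Rik and Ctrb1 (r = 0.85), and 5 of 10 were on both lists. All 15 genes had negative values at day 7, and 7 of them were called lower, beside 1.31% of all tested genes. They were picked for likeness to Rn45s and Lars2, which both fell at day 7, so this direction follows from the choice. Hamp2 was the largest of them at -1.17 (SE 0.15, edgeR adjusted p = 1.70e-05), followed by Sycn at -1.15 (SE 0.12, edgeR adjusted p = 1.77e-07). None of the 15 was called at day 14 against baseline, where Lars2 was and where 0.0902% of all tested genes were called lower. On deviations from the time point means, 1 of the 10 genes of Rn45s and 0 of the 10 of Lars2 remained, so these lists describe the time course and not likeness between mice of the same time point.

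Markers of other cells moved at the same time. Of the 21 acinar markers, 9 were called lower at day 7 and 0 higher (median -0.56, with Prss2 at -0.94 and Pnlip at -0.88), and under total count scaling 0 of 21 were called lower. At day 14, 0 of 21 were called by edgeR or DESeq2, with 14 at an unadjusted p under 0.05 and a median of -0.27. Summed over the list, acinar markers took 52.1% to 58.6% of counts in baseline mice, 44.2% to 50.2% in day 7 mice and 50.3% to 54.0% in day 14 mice. Over 23 mice the log2 of that share had r = 0.82 with log2 CPM of Rn45s. The same r was -0.84 for fibroblast, -0.78 for macrophage, -0.76 for duct, -0.72 for islet and -0.43 for endothelial markers. These r span the differences between time points and carry no test. At day 7, 3.82% of all tested genes were called higher, among them 8 of 10 macrophage markers (C1qa by 1.05), 7 of 9 fibroblast markers (Lum by 1.41), 4 of 7 islet markers (Ins2 by 0.97) and 2 of 6 duct markers (Spp1 by 0.72). Macrophage markers together took 0.00351% to 0.0123% of counts in baseline mice and 0.00870% to 0.0252% in day 7 mice. The same ranges were 0.0272% to 0.0677% and 0.0691% to 0.147% for fibroblast markers, 0.0127% to 0.0450% and 0.0555% to 0.141% for islet markers, and 0.00680% to 0.00965% and 0.0119% to 0.0214% for duct markers. Of 6 endothelial markers 1, Flt1, was called lower (-0.70), whereas total count scaling called 0 lower and 1 higher, and their share was 0.00615% to 0.0113% in baseline mice and 0.00717% to 0.0145% in day 7 mice. At day 14, 0.697% of all tested genes were called higher, among them 3 of 9 fibroblast markers (Lum by 0.90, Dpt by 0.72 and Pdgfra by 0.63). The fibroblast share was then 0.0542% to 0.0792%. The day 14 values of all 7 islet markers were positive, with a median of 0.71, but 0 were called by edgeR or DESeq2 and 3 had an unadjusted p under 0.05. No macrophage, duct or endothelial marker was called at day 14 by either tool, with 1, 1 and 2 at an unadjusted p under 0.05. No marker of these lists was at 0 in a whole time group. The part of cell composition in the fall of the 4 symbols was not tested, and in bulk tissue fewer cells of a type and less RNA per cell cannot be told apart.

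Genes of the machinery that makes ribosomal RNA were not called lower in these mice, and few of all tested genes were. At day 7, 1.31% of all tested genes were called lower and 3.82% higher, and at day 14, 0.0902% and 0.697%. In lists of this size, 0 called lower is near those shares and is given as a description only. Of 22 tested genes of RNA polymerase I and its factors, 0 were called lower and 1 higher at day 7. That gene was Polr2h, a subunit common to RNA polymerases I, II and III, at 0.68 (SE 0.17, edgeR adjusted p = 0.00485). The list median was 0.09, beside 0.02 over all tested genes. Of 69 pre-rRNA processing genes, 0 were called at day 7 by edgeR or DESeq2, with 8 at an unadjusted p under 0.05 and a median of 0.04. At day 14 no gene of either list was called by either tool, with 2 polymerase I genes and 4 processing genes at an unadjusted p under 0.05. Under total count scaling, 8 polymerase I genes and 21 processing genes were called higher at day 7 and 0 lower, with list medians of 0.55 and 0.50 beside 0.47 over all genes. With that scaling 30.1% of all tested genes were called higher.

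The lookup covered 35 symbols, mainly of ribosomal and other structural RNAs and of microRNAs. Of these, 11 were present and 6 were tested, Mir6236 and Mir6240 among them. The other 4 had positive values at day 7, in the opposite direction from the members. Rpph1, the RNA of ribonuclease P, rose by 0.60 (SE 0.09, edgeR adjusted p = 1.89e-05), and Terc, the telomerase RNA, rose by 0.98 (SE 0.17, edgeR adjusted p = 0.000177). Rmrp, the RNA of the ribonuclease that takes part in pre-rRNA cleavage, had 0.40 (SE 0.11, edgeR adjusted p = 0.0157), below the fold limit. Erdr1, which is not a ribosomal or structural RNA, had 0.74 (SE 0.47, edgeR adjusted p = 0.294).

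The other genes of the pathway of Lars2 and its neighbours were not called. The list of mitochondrial aminoacyl-tRNA synthetase genes also held Gars and Kars, whose enzymes serve the cytosol as well. It further held Qrsl1, Gatb and Gatc, which encode amidotransferase subunits and not synthetases. Apart from Lars2, 0 of the 21 tested genes of this list were called at day 7 or day 14 by edgeR or DESeq2, with 3 at an unadjusted p under 0.05 each time. Of all 12195 tested genes, edgeR called 626 at day 7 and 96 at day 14 in either direction. With shares that small, 0 calls among 21 genes is a description only. Their median was 0.01 at both days, and their day 7 values ran from -0.36 to 0.58, against -1.16 for Lars2. Under total count scaling 7 of the 21 were called higher at day 7 and 0 lower, where 30.1% of all tested genes were called higher. Lars, the cytosolic leucyl-tRNA synthetase, had 0.02 at day 7 (SE 0.06, edgeR adjusted p = 0.858) and 0.05 at day 14. Its normalised count was 768 ± 64 (SD, n = 8) at baseline, 779 ± 82 (n = 8) at day 7 and 801 ± 82 (n = 7) at day 14.

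**Figure D5:**
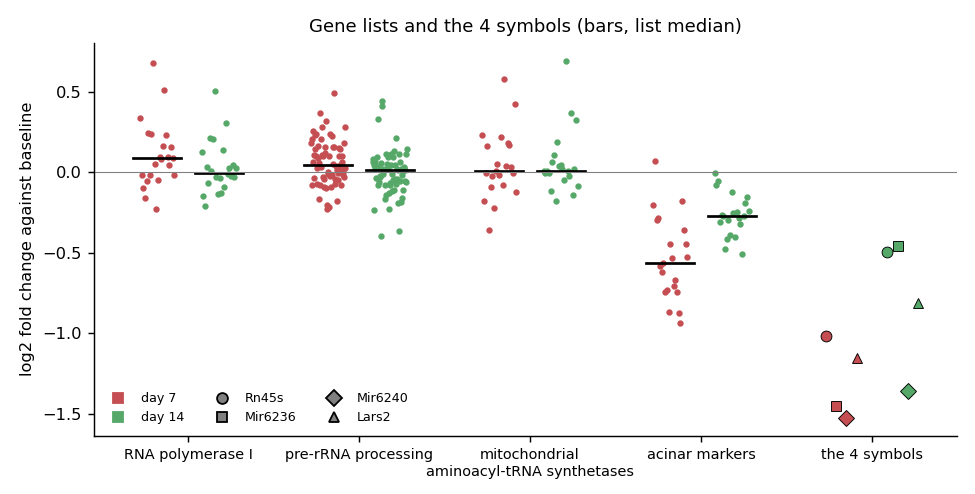
Log2 fold changes against baseline (vertical axis) at day 7 (red) and day 14 (green) for genes of 4 lists, with bars at the list medians, and for the 4 symbols at the right. The polymerase I, processing and mitochondrial synthetase medians lie at 0.09, 0.04 and 0.01 at day 7, the acinar median at -0.56, and all 4 symbols below -1 at day 7.

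The tested genes nearest to Lars2 on chromosome 9 are Cdcp1, Clec3b and Exosc7 before it and Limd1, Sacm1l and Gm10052 after it, between 16040 and 230798 bases away. None of the 6 was called at day 7 or day 14, where 626 and 96 of all 12195 tested genes were called. Their day 7 values ran from -0.12 for Cdcp1 (SE 0.12) to 0.43 for Clec3b (SE 0.22, edgeR adjusted p = 0.175). The nearest, Limd1, had -0.08 (SE 0.05, edgeR adjusted p = 0.276), and its r with Lars2 was 0.41.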

How the data were processed

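RNA-seq of the head of the pancreas was analysed for 23 mice. Per the labels and the study's methods, total RNA was depleted of ribosomal RNA (Ribo-Zero Gold), made into stranded paired 75-base libraries, trimmed with Trim Galore and cutadapt, aligned to mm10 with STAR (version 2.5.2a) and counted over genes with featureCounts from uniquely mapped fragments. The annotation is not given in the sources used here. The deposited values are raw counts per gene symbol. Counts of a repeated sequence such as Rn45s are therefore what depletion and unique mapping left. Depletion efficiency per mouse is not given, and its part in the results was not tested. The study's supplement gives mapping and duplicate rates per library, and these differed between time points. Every baseline library had a higher duplicate rate than every day 7 library, and most baseline libraries had a lower mapping rate. These library differences were not tested and cannot be told apart from time point.

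Counts were tested in R 4.3.3 with the edgeR 4.0.16 quasi-likelihood test (TMM, filterByExpr by time point, robust) with time point and sex in 1 fit (12195 genes), and with 6 groups of sex and time point for sex contrasts (12933 genes). SE was derived from the F statistic. Adjusted p-values are Benjamini-Hochberg over all tested genes, and a call needed both an adjusted p no higher than 0.05 and a change of 1.5-fold or more (adjusted p alone for interactions). Log2 CPM used a prior count of 2. Shares were compared with exact two-sided permutation tests. The fits were tested on simulated data. Alternatives were DESeq2 1.42.0, its size factors, total count scaling with and without the 20 largest genes, filters of 1 count in any mouse and 10 in every mouse, no sex term, no robust fit, TMM without the members, only the 2 groups compared, and leaving out each mouse. Named genes were the members, the 10 genes with the highest r with Rn45s and with Lars2, the 3 tested genes on each side of Lars2, and up to 4 called genes per list. Members and lists were chosen with earlier results of these data known. Library totals (7059890 to 9567446 counts) leave counting error as a limit for Mir6240, with 3 to 18 counts per mouse. Sequences and positions came from RefSeq (GRCm38.p6) and GENCODE (GRCm38, the same assembly as mm10), in which 3 of 4 members have an entry.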

Additional observations from a re-analysis of the deposited data

Results flagged for a closer look

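A test for a sample far from the rest of its group was run on 21 sets of values (4 normalised counts and 3 ratios to Rn45s at 3 time points), and chance alone flags about 1 in 20 such sets. It marked 2, both for mouse 23, a male of day 14. Its normalised Lars2 count was 3555, beside a group median of 2668, and the gap to the next mouse was 80.4% of the range of the group. Its Mir6240 count was 13.1, beside a median of 6.61, from 12 deposited counts. Mouse 23 was also highest of day 14 in Rn45s (198711) and Mir6236 (14308), where it was not marked, and its ratios to Rn45s were not marked.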

How the results depend on the processing

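The day 7 calls of Mir6236, Mir6240 and Lars2 held under all alternatives that gave a value, as did the day 14 calls of Lars2 and Mir6240. Rn45s at day 7 lost its call with total count scaling, at -0.57, where the median of all genes is shifted. Total count scaling turned the day 14 to day 7 value of Mir6240 (-0.058), the sex value of Lars2 (0.056, and 0.010 without the 20 largest genes) and 3 sex values of Rn45s (0.025 at baseline, 0.015 at day 14 and -0.0091 for the day 14 interaction), none of them called. Mir6236 gained a call from day 7 to day 14 with DESeq2 (0.99), total count scaling (0.78) and a fit without robust estimation (0.99), and the cause was not tested. As shares of counts outside the 20 largest genes (with the counts of Rn45s, one of these genes, put back into the total for its own share and for that of all members), 4 differences gained significance, namely 1.27 for Rn45s, 0.0161 for Lars2 and 1.42 for all members from day 7 to day 14, and -0.122 for Mir6236 at day 14, in percentage points, while Mir6240 turned to 2.03e-05. The r with Rn45s moved with total count scaling to 0.92 (Mir6236), 0.72 (Mir6240) and 0.74 (Lars2), on deviations to 0.89, 0.63 and 0.59, and to 0.86 for Lars2 without the 2 extreme mice. Windows of Lars2 in Gm15564 numbered 3 at 50 bases and 23 at 30 bases. The 10 genes most like Rn45s kept 6 with total count scaling and 6 with Spearman's rho, and those most like Lars2 kept 4 and 6. The filter of 10 counts in every mouse removed Mir6240, and gave it no value.

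Leaving out each mouse changed no call of the 4 members against baseline. From day 7 to day 14, Rn45s ran from 0.43 to 0.60 and Mir6236 from 0.83 to 1.15, and both gained a call without mouse 11 of day 7 (edgeR adjusted p = 0.0120 and 0.0225). Mir6240 ran from -0.012 to 0.28 and was negative without mouse 23. Uncalled sex values that turned ran from -0.016 to 0.088 (Rn45s) and from -0.070 to 0.041 (Lars2) over all time points, from -0.17 to 0.024 (Rn45s) at baseline, from -0.15 to 0.43 (Mir6240) at day 7, and from -0.22 to 0.072 (Rn45s) and from -0.39 to 0.029 (Mir6236) at day 14. The day 14 interaction of Rn45s ran from -0.13 to 0.15. The share difference between day 7 and day 14 ran from 0.237 to 0.375 percentage points for Rn45s, from 0.273 to 0.426 for all members, from 0.0325 to 0.0476 for Mir6236 and from -1.23e-05 to 2.98e-06 for Mir6240. That of Rn45s passed without any one of mice 11, 12, 17 and 24 (exact permutation p from 0.0286 to 0.0449), and that of all members without any one of these or mouse 21 (exact permutation p from 0.0233 to 0.0496). That of Mir6236 was lost without mouse 23. With 3 to 18 counts per mouse, Mir6240 is limited by counting error.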
